A study of Populus alba x Populus glandulosa with 12 samples.

Results

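In droughted poplar leaves 85392 gene models were measured. Of these, 197 carried a Gene Ontology (GO) annotation but no KEGG orthology (KO) name and varied little in the deposited values. They were chosen on 2 values: a lowest FPKM (fragments per unit of transcript length and of library size) of at least 20 among the 12 libraries, and a highest FPKM at most 1.4 times the lowest. Of the 30422 genes with a GO term and no KO name, 1043 passed the first bound, and 197 of those passed the second as well. Under rescalings described below that did not use these 197 genes, 80, 161 and 173 of them still met both bounds. The libraries came from leaves of wild-type 84K poplar, a clonal hybrid of Populus alba and Populus glandulosa, after 0, 3, 6 and 9 days of drought, with 3 libraries for each day. Day 0 was the control, and no plants kept watered to days 3, 6 or 9 were among the samples, so drought and plant age cannot be told apart. The labels also give a separate batch to every day, which means that an effect of batch and one of day cannot be told apart. The replicates are described as biological, without a statement that they were taken from different plants, and the SDs below measure only the spread between these libraries.

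A reference gene is a transcript whose level is used as the denominator for other genes, most often in quantitative RT-PCR, and it is useful only if its own level does not follow the treatment. Actin, tubulin, ubiquitin, elongation factor and GAPDH genes have long served in this role in plants because their products are needed in nearly every cell. Those genes have KO names, whereas the 197 genes were described in the table only by GO terms for a process (BP), a cell component (CC) or a molecular function (MF), with 0 gene descriptions in the whole table. The absence of a KO name is a property of this annotation and does not mean that a gene is unstudied. Because FPKM is a relative scale and whole leaves were sampled, fewer cells of a type and less RNA per cell cannot be told apart in any value below.

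The values of each library summed to between 684857 and 732119 FPKM, and 34492 to 38140 genes reached 1 FPKM. Both differed by day. The sums were 727785 to 730723 on day 0, 717938 to 732119 on day 3, 684857 to 688983 on day 6 and 700689 to 715304 on day 9. In the same order, 37968 to 38140, 37693 to 37765, 34492 to 34687 and 35079 to 35677 genes reached 1 FPKM. Read depth is unknown. Large changes surrounded the stable genes: the summed level of the small subunit genes of Rubisco (rbcS), the carbon-fixing enzyme of photosynthetic cells, lay between 5241 and 5392 FPKM on day 0 and between 198 and 209 on day 6. The light-harvesting antenna genes LHCB1 lay at 7535 to 7793 FPKM on day 0 and at 24.4 to 38.8 on day 6, and the other photosynthetic markers examined (LHCB2, psbO and psaD) were also lower in every day 6 library than on day 0. Both were abundant in the day 0 libraries, as the leaf label would have it. Of the guard-cell markers, the genes named FAMA summed to 19.1 to 21.7 FPKM on day 0 and 2.07 to 2.20 on day 6, and those named SLAC1 to 7.76 to 10.8 and 39.96 to 47.7.

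The ratio of highest to lowest FPKM among the 197 genes ran from 1.08 to 1.399, with a median of 1.31, and 18 of them stayed at or under 1.2 while 115 lay above 1.3. The coefficient of variation over the 12 libraries had a median of 8.88% and ran from 2.28% to 14.5%. Most of the genes were moderately expressed: the mean FPKM had a median of 38.8, 55 genes lay under 30, 66 reached 50 and 14 reached 100. On the log2 scale the SD between libraries of the same day had a median of 0.06, and the SD between the 4 day means a median of 0.12. For 173 of the 197 genes the day means thus spread more than the libraries of a day. The libraries of the days with the highest and the lowest mean did not overlap in 176 genes and overlapped in 21. Absence of overlap, given below for single genes, was therefore the usual case among these 197. The comparison takes the extreme days of 4, which favours absence of overlap. The counts of 173 and 176 were not made over all genes, so nothing is read from them. The highest day mean was 1.04 to 1.35 times the lowest, with a median of 1.21, and it was at most 1.1 times the lowest in 19 genes.

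The highest and the lowest means were spread over all 4 days. The highest mean fell on day 0 in 60 genes, day 3 in 49, day 6 in 45 and day 9 in 43. The lowest mean fell on day 0 in 63 genes, day 3 in 52, day 6 in 42 and day 9 in 40. Relative to day 0, the mean was higher on day 3 in 103 of 197 genes, on day 6 in 99 and on day 9 in 100. This even split belongs to the deposited scale: with median-ratio factors over all genes above 0 the counts were 104, 178 and 165, and with the same FPKM sum in each library they were 105, 125 and 116. With median-ratio factors over genes of at least 20 FPKM they were 92, 104 and 87. The orders of days given below for single genes are those of the deposited FPKM, and under another scaling they can turn.

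**Figure D1:**
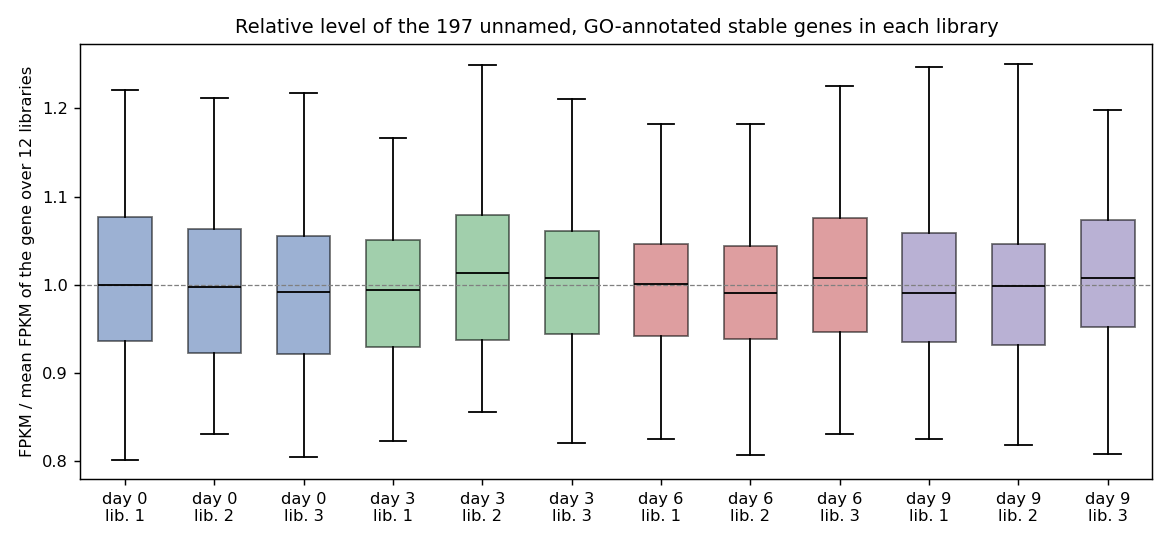
FPKM of each of the 197 genes divided by the mean of that gene over the 12 libraries (vertical axis), for each library (horizontal axis), with the median as a line, the quartiles as a box and the full range as whiskers. The medians lie close to 1 in every library, and the boxes of all days overlap.

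The bounds cut through a continuous distribution. Just inside the ratio limit were Pag.A05G002504.v3.1 and Pag.A02G001411.v3.1, both annotated only as membrane, at 1.397 and 1.399, and the GTPase-annotated Pag.A15G000330.v3.1 at 1.399. Just outside were the translation initiation factor gene Pag.B19G000829.v3.1 at 1.401 and the transferase genes Pag.A07G001667.v3.1 and Pag.B10G001991.v3.1 at 1.402 and 1.404. At the lower bound of expression, Pag.B10G000513.v3.1 had a lowest value of 20.01 FPKM, and Pag.A13G000495.v3.1 and Pag.B06G000069.v3.1 both had 20.05. The genes that narrowly missed it were Pag.B16G001248.v3.1 at 19.99, Pag.A17G001330.v3.1 at 19.91 and Pag.B17G001029.v3.1 at 19.82 FPKM.

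Stability of this kind was a minority property. Among the 1043 genes with a GO term, no KO name and a lowest value of at least 20 FPKM, the median ratio was 1.89, the range between the quartiles ran from 1.47 to 2.84, and 466 (44.7%) varied more than 2-fold. The share within both bounds was 18.9% for these genes, 22.4% (500 of 2232) for genes with a KO name, 12.6% (49 of 388) for genes with neither annotation and 20.4% (746 of 3663) for all genes at that level of expression. These shares are a description of the same values that chose the genes, and the differences between them were not tested.

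**Figure D2:**
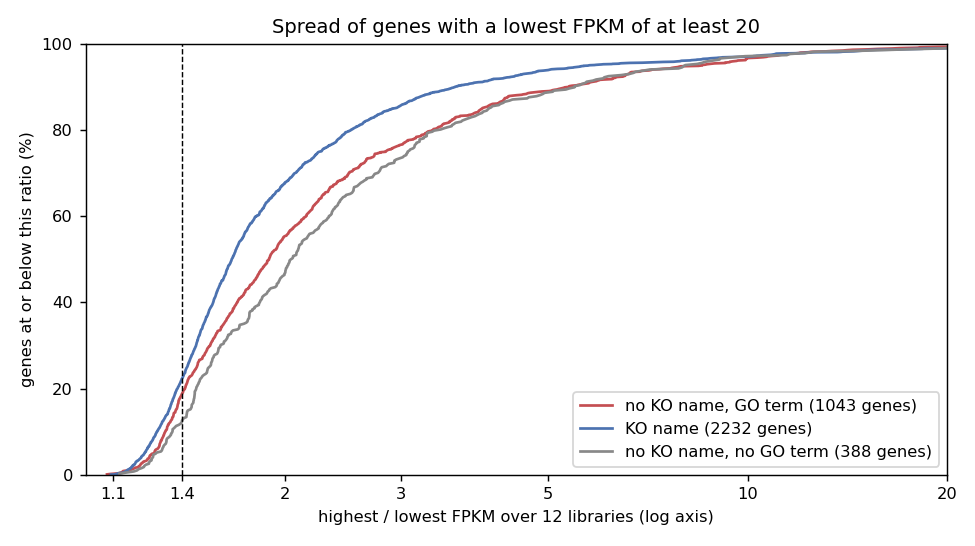
Cumulative share (vertical axis, %) of genes with a lowest FPKM of at least 20 against the ratio of highest to lowest FPKM over 12 libraries (horizontal log axis), for genes with a GO term and no KO name, genes with a KO name and genes with neither, and the dashed line marks 1.4. At the line the curves stand at 18.9%, 22.4% and 12.6%.

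By the deposited FPKM the steadiest transcript was Pag.B09G001337.v3.1, whose GO terms name actin binding, actin filament depolymerization and the base of the proteasome regulatory particle. Its FPKM was 54.3, 53.2 and 51.6 at day 0, 52.9, 51.3 and 52.2 at day 3, 53.9, 53.7 and 53.3 at day 6 and 50.4, 52.0 and 51.6 at day 9. The day 6 libraries were the highest on average and the day 9 libraries the lowest, those 2 days did not overlap, and the whole span was a factor of 1.08 with a coefficient of variation of 2.28%. Actin filament depolymerization is the removal of subunits from the ends of actin filaments, part of the normal turnover of the cytoskeleton.

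Pag.A01G001547.v3.1, annotated with NAD+ ADP-ribosyltransferase activity and response to stress, was the steadiest of the 14 genes with a mean of at least 100 FPKM. With the same FPKM sum in each library its ratio, 1.106, was the smallest of all 197, as it was with median-ratio factors over genes of at least 20 FPKM, at 1.094. Its values were 122, 123 and 119 FPKM at day 0, 130.2, 127 and 123 at day 3, 122, 123 and 122 at day 6 and 123, 122 and 126 at day 9, a ratio of 1.09. The day 3 mean was the highest and the day 0 mean the lowest, and the libraries of those 2 days overlapped. ADP-ribosyltransferases attach ADP-ribose from NAD+ to their targets. This gene also had the lowest geNorm M, 0.129; that index is the average SD, over the 12 libraries, of the log2 ratio of a gene to each of the others among the 197, and it ran up to 0.236. The 2 orderings largely coincided, since 9 of the 10 genes with the smallest ratio were among the 10 with the lowest M, although both were computed from the same values.

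Pag.B01G000093.v3.1, a membrane gene with nucleotidyltransferase activity in its annotation, read 64.8, 62.4 and 65.5 FPKM at day 0, 64.2, 61.6 and 62.7 at day 3, 67.8, 67.6 and 66.0 at day 6 and 68.1, 65.2 and 68.3 at day 9. Its highest mean was on day 9 and its lowest on day 3, without overlap, within a ratio of 1.11. A second gene with exactly the same pair of GO terms, Pag.A01G000841.v3.1, had day means of 62.4 ± 3.10, 62.7 ± 1.49, 61.5 ± 3.99 and 64.7 ± 2.58 FPKM (mean ± SD, n = 3 libraries a day, as for all day means below), and its highest and lowest days overlapped.

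The next genes were less abundant. Pag.B02G001738.v3.1, annotated to membranes and membrane-bounded organelles, had 29.2, 28.1 and 27.8 FPKM at day 0, 29.4, 30.9 and 31.2 at day 3, 31.4, 30.9 and 29.98 at day 6 and 29.9, 29.99 and 30.3 at day 9. Day 0 was lowest and day 6 highest, with no overlap between them, and the ratio was 1.13. For Pag.A06G000762.v3.1, annotated only as membrane, the values were 42.5, 45.5 and 43.2, then 44.6, 43.0 and 42.4, then 45.4, 44.6 and 44.6 and finally 40.3, 41.7 and 40.7 FPKM on the same days. Its day 9 libraries were all below the day 6 libraries, and the ratio was again 1.13. The zinc-binding gene Pag.B06G000512.v3.1 had 22.2, 22.9 and 23.2 FPKM at day 0, 22.6, 25.2 and 22.8 at day 3, 23.6, 23.7 and 24.2 at day 6 and 24.2, 24.9 and 25 at day 9; day 9 lay above day 0 without overlap, and 1 day 3 library was the highest of all.

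Pag.A03G001075.v3.1 and Pag.B07G000247.v3.1, both annotated only as membrane, had ratios of 1.14 and 1.14 but means of only 21.4 and 21.9 FPKM, close to the lower bound. Pag.A09G000015.v3.1 carried the terms for complex II of the mitochondrial respiratory chain (succinate dehydrogenase, which links the citric acid cycle to electron transport) and protein anchor. It had 44.7, 44.7 and 45.3 FPKM at day 0, 46.9, 47.1 and 46.6 at day 3, 42.8, 47.7 and 43.8 at day 6 and 48.8, 47.0 and 46.3 at day 9. Days 0 and 6 were the lower ones and days 3 and 9 the higher, except for 1 day 6 library at 47.7, within a ratio of 1.14. The last of the 10, the protein kinase gene Pag.A12G001136.v3.1, had day means of 95.9 ± 1.56, 86.4 ± 2.65, 92.7 ± 0.816 and 90.0 ± 2.08 FPKM, with every day 0 library above every day 3 library and a ratio of 1.15.

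**Figure D3:**
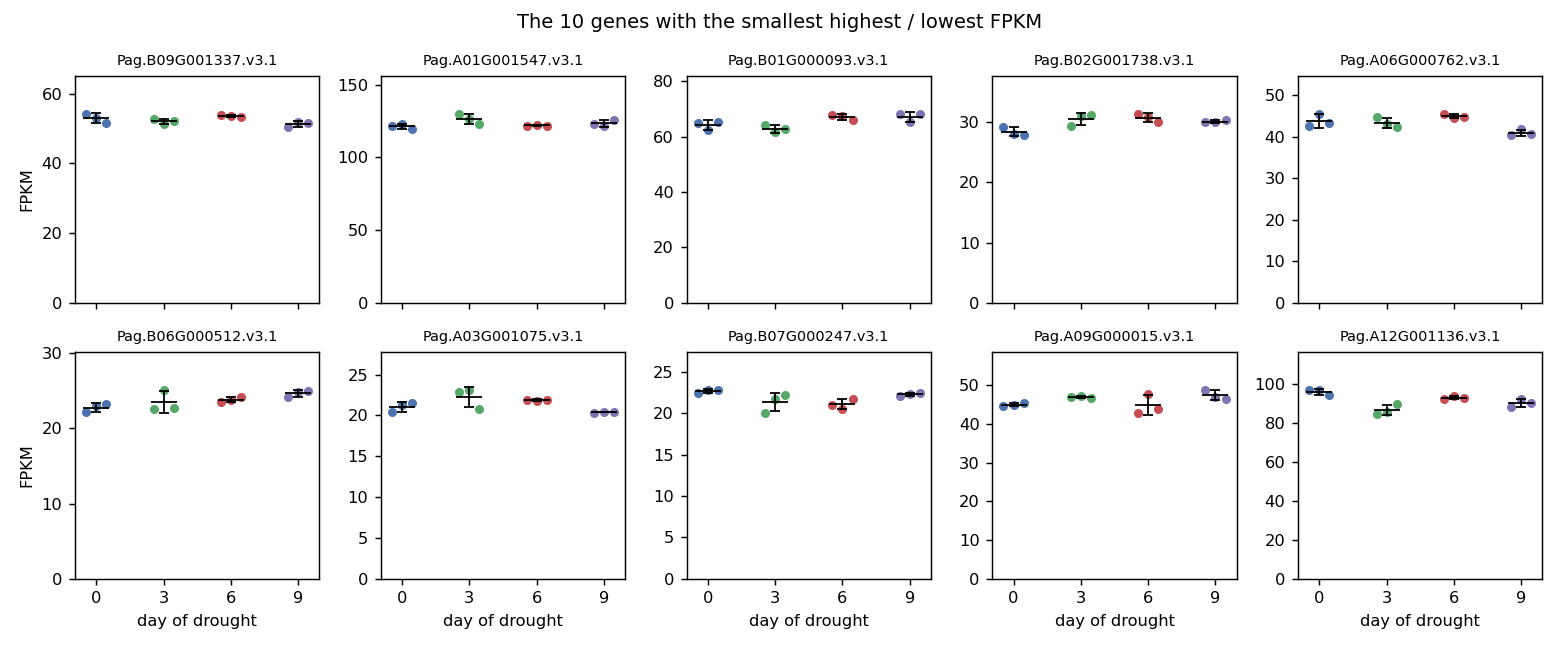
FPKM (vertical axes, from 0) by day of drought (horizontal axes) for the 10 genes with the smallest ratio of highest to lowest FPKM. Coloured points are libraries, the black line with bars is the mean ± SD of 3 libraries, and ratios run from 1.08 to 1.15.

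The most abundant gene was of another order. Pag.A01G004426.v3.1, annotated with copper ion homeostasis and with copper and zinc binding, had 6475, 6488 and 6503 FPKM at day 0, 7975, 8558 and 8847 at day 3, 6924, 6682 and 6767 at day 6 and 7935, 7030.0 and 7499.9 at day 9. Day 3 was the highest and day 0 the lowest, without overlap, and the ratio was 1.37, near the limit. With median-ratio factors over all genes above 0 the ratio was 1.46, outside the limit. This gene alone held 0.886% to 1.21% of all FPKM in a library, of the 2.21% to 2.54% held by the 197 genes together. Copper is a cofactor of electron carriers and oxidases in plant cells, and free copper ions are toxic, so cells keep it bound.

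The other 4 genes with the highest means lay between 150 and 234 FPKM. Pag.B05G000762.v3.1, a nucleosome gene annotated as a structural constituent of chromatin, which packages DNA, had day means of 217 ± 5.85, 278 ± 8.43, 216 ± 1.41 and 223 ± 5.38 FPKM; its day 3 libraries stood above those of all other days. Pag.A17G000881.v3.1, annotated with binding of phosphatidic acid, a membrane lipid that also acts as a signal, had 166 ± 4.11, 202 ± 1.247, 189 ± 2.97 and 200.3 ± 1.53 FPKM, with day 0 below every drought day. Pag.B03G001907.v3.1, an endoplasmic reticulum gene of protein transport, had 154 ± 8.07, 173 ± 4.88, 162 ± 7.63 and 186 ± 7.48 FPKM. Pag.A08G000390.v3.1, known only as a membrane gene, read 139, 188 and 179 FPKM at day 9. The first of these lay below the other 2 by more than the range of any other day. Its ratio was 1.38, but 1.415 with the same FPKM sum in each library and 1.59 with median-ratio factors over all genes above 0. Of these 4 genes only Pag.B05G000762.v3.1 met the rule under every scaling described below.

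By the words in their GO terms, the 197 genes fell into overlapping groups. The word membrane appeared for 121 of them, which were 24.4% of the 496 membrane genes at this level of expression, beside 18.9% for all GO-annotated genes without a KO name. For 39 genes membrane was the sole annotation. The vesicle and protein transport group held 32 of 98 genes (32.7%), and the mitochondrion and respiration group 10 of 32 (31.2%). Kinases and phosphatases gave 15 of 60 (25%), ubiquitin and proteolysis 15 of 71 (21.1%), chromatin and transcription 20 of 120 (16.7%), RNA binding or processing 12 of 75 (16.0%) and translation 6 of 39 (15.4%). The shares were lower for plastid terms at 8 of 64 (12.5%), metal binding at 21 of 168 (12.5%), redox terms at 5 of 44 (11.4%) and protein folding at 1 of 12 (8.33%). A further 27 genes held none of these words. The word lists are broad, since transport also matches membrane carriers and electron transport, and the shares were not tested against one another.

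Vesicle traffic moves proteins and lipids between the Golgi, the vacuole and the plasma membrane, and clathrin is the coat protein of one class of vesicle. Pag.A10G002039.v3.1, Pag.B04G000390.v3.1 and Pag.A04G000424.v3.1 shared one GO text for the clathrin coat and clathrin-dependent endocytosis. The first had day means of 26.7 ± 0.864, 22.0 ± 1.48, 23.2 ± 1.66 and 24.8 ± 0.815 FPKM, the second 48.9 ± 1.89, 42.1 ± 1.52, 49.0 ± 1.504 and 52.7 ± 2.60, and the last 71.8 ± 2.95, 56.2 ± 1.07, 55.7 ± 1.66 and 59.4 ± 2.67. The first and the last were highest on day 0 and the second on day 9, so these 3 genes did not share 1 order of days. Pag.A14G000840.v3.1 and Pag.B14G000792.v3.1, annotated with SNARE complex assembly, the step that fuses vesicles with their target, had ratios of 1.39 and 1.29, and both had their lowest mean on day 6 at 21.5 ± 0.542 and 31.7 ± 0.748 FPKM.

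Endosomal sorting was represented by Pag.B02G000199.v3.1, annotated to the ESCRT I complex, which sorts ubiquitin-tagged membrane proteins into multivesicular bodies. Its day means were 28.0 ± 1.22, 24.6 ± 0.785, 25.9 ± 0.571 and 24.9 ± 1.048 FPKM, with day 0 above day 3 without overlap. The GTPase genes Pag.A15G000330.v3.1 and Pag.B15G000363.v3.1, annotated to endocytic vesicles, had nearly equal means of 37.8 and 37.5 FPKM. The first had overlapping libraries on all days and the largest spread within a day of all 197 genes, an SD of 0.14 on the log2 scale. Lipid carriers of the group were the sterol transport genes Pag.A16G000805.v3.1 and Pag.B06G002046.v3.1 and the ceramide transport gene Pag.A06G002558.v3.1. On day 3, Pag.A16G000805.v3.1 had its highest mean at 28.4 ± 0.673 FPKM against 22.4 ± 0.944 on day 0, whereas Pag.B06G002046.v3.1 had its lowest at 47.0 ± 0.483 against 54.0 ± 0.973. Pag.A06G002558.v3.1 lay between 28.6 and 37.0 FPKM with overlapping days.

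Peroxisomes are organelles of photorespiration and fatty acid oxidation that multiply by fission, and 4 of the 197 genes carried the same GO text for peroxisome size and fission. The table lists 9 genes with that text, 4 of which reached 20 FPKM in every library, and these 4 were all within the ratio limit on the deposited scale. With the same FPKM sum in each library 2 of the 4 met the rule, and with median-ratio factors over all genes above 0 it was 0 of 4. Pag.A14G000749.v3.1 had 74.4, 71.4 and 77.2 FPKM at day 0, 82.5, 78.5 and 81.2 at day 3, 82.2, 83.4 and 87.2 at day 6 and 80.8, 76.6 and 80.7 at day 9. All day 6 libraries were above all day 0 libraries, and the ratio was 1.22. Pag.B14G000694.v3.1 had day means of 72.5 ± 1.52, 92.2 ± 1.82, 96.9 ± 0.942 and 90.2 ± 2.68 FPKM, Pag.A02G001146.v3.1 56.1 ± 1.61, 69.8 ± 3.73, 64.3 ± 1.97 and 58.8 ± 0.925, and Pag.B02G001671.v3.1 74.5 ± 2.62, 95.9 ± 4.14, 94.0 ± 0.913 and 76.8 ± 2.41. In each of these 4 genes day 0 had the lowest mean of the deposited values, and the ratios of the last 3 were 1.39, 1.35 and 1.396.

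Mitochondrial genes other than the complex II gene included Pag.A04G002271.v3.1, Pag.B04G002248.v3.1 and Pag.B05G002517.v3.1, annotated with the assembly of complex I, the entry point of the respiratory chain. The first had 69.1, 72.8 and 63.9 FPKM at day 0, 58.5, 67.8 and 68.1 at day 3, 65.1, 61.6 and 63.3 at day 6 and 63.0, 63.0 and 74.8 at day 9, with overlap of all days. The second had its lowest mean on day 6, 43.7 ± 1.28 FPKM against 50.3 ± 1.09 on day 0, and the last its highest on day 9, 29.8 ± 2.05 against 26.7 ± 0.825. Pag.A08G000795.v3.1 and Pag.B08G000715.v3.1, annotated with cytidine-to-uridine editing of mitochondrial mRNA, both had their highest mean on day 3, 33.5 ± 0.880 and 32.9 ± 1.43 FPKM, against 26.7 ± 0.481 and 26.8 ± 2.09 on day 0. Among redox genes, Pag.A19G000403.v3.1 and Pag.B19G000518.v3.1, annotated with thioredoxin peroxidase activity, which removes hydrogen peroxide, had means over all libraries of 33.6 and 29.4 FPKM and ratios of 1.305 and 1.29. The aldo-keto reductase gene Pag.B14G001436.v3.1 had day means of 27.7 ± 0.202, 34.7 ± 0.826, 34.5 ± 1.52 and 29.1 ± 0.239 FPKM, higher on the 2 middle days.

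Protein kinases add phosphate to proteins and carry many plant signals. Beside Pag.A12G001136.v3.1, the serine/threonine kinase genes Pag.A16G000634.v3.1 and Pag.B06G001785.v3.1 had ratios of 1.205 and 1.21. Their day means were 82.0 ± 5.18, 87.4 ± 1.64, 80.9 ± 1.45 and 76.7 ± 3.35 FPKM for the former and 61.5 ± 2.12, 59.7 ± 2.61, 67.3 ± 1.51 and 62.4 ± 1.89 for the latter. The only gene with a protein folding term, Pag.A01G000302.v3.1, was also annotated as a kinase and lay between 45.2 and 59.1 FPKM.

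Ubiquitin marks proteins for degradation by the proteasome, and SUMO is a related tag attached mostly to nuclear proteins. Pag.A14G001231.v3.1, a ubiquitin transferase gene of membranes, had day means of 84.1 ± 1.98, 71.8 ± 3.66, 86.6 ± 3.56 and 89.9 ± 2.92 FPKM and was lowest on day 3. The proteasome core gene Pag.A01G001840.v3.1 had 25.7 ± 1.101 FPKM on day 0 and 31.3 ± 2.10 on day 3, its lowest and highest means. For the ubiquitin protease gene Pag.B11G000186.v3.1 the extremes were 21.3 ± 0.949 on day 0 and 26.8 ± 0.507 on day 6. Pag.B17G001179.v3.1, annotated to an SCF ubiquitin ligase of auxin signalling, ran the other way, from 28.4 ± 0.745 FPKM on day 0 to 23.2 ± 2.28 on day 9. Both SUMO genes, the tag gene Pag.A14G001639.v3.1 and the transferase gene Pag.A04G002089.v3.1, kept within ratios of 1.32 and 1.32, at means of 37.3 and 127 FPKM.

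In the nucleus, the steadiest gene with a chromatin or transcription term was the DNA-binding gene Pag.B06G001575.v3.1, with day means of 48.1 ± 2.37, 44.0 ± 0.8, 44.2 ± 0.754 and 46.7 ± 2.92 FPKM and a ratio of 1.18. Pag.A03G001694.v3.1 was annotated to SAGA, a coactivator complex that modifies histones, and ran from 34.7 ± 0.603 FPKM on day 3 to 40.5 ± 0.512 on day 9. The transcription factor gene Pag.B17G001619.v3.1 had its highest mean on day 6, 53.0 ± 2.31 FPKM, against 46.3 ± 2.19 on day 0. For RNA, the steadiest was the RNA-binding membrane gene Pag.A11G001316.v3.1, with 48.1 ± 0.915 FPKM on day 0, 55.6 ± 1.63 on day 6 and a ratio of 1.21. Pag.B18G000291.v3.1, a nuclear RNA-binding gene, lay between 23.0 and 28.8 FPKM.

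Translation genes were few, and the most abundant was the ribosomal protein gene Pag.A05G000267.v3.1, also annotated with meristem maintenance. Its day means were 158 ± 3.66, 135 ± 8.52, 136 ± 4.92 and 158 ± 5.13 FPKM. Pag.B05G000265.v3.1, with the same GO text, stood far lower, at 31.2 ± 1.11, 28.2 ± 2.38, 24.97 ± 1.026 and 30.6 ± 2.34 FPKM. Pag.A02G002490.v3.1, a mitochondrial GTPase gene of ribosome biogenesis, had 30.2 ± 0.978 FPKM on day 3 and 24.6 ± 1.48 on day 6, its extremes.

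The 8 genes with plastid terms kept within the same bounds by the rule, beside the antenna and Rubisco levels given above. Pag.B16G000128.v3.1, annotated with chloroplast accumulation and avoidance movement, by which chloroplasts move toward weak light and away from strong light, had day means of 79.2 ± 1.99, 74.3 ± 1.53, 69.8 ± 0.504 and 66.6 ± 4.32 FPKM. Every day 0 library was above every day 9 library. The fatty acid transporter genes of the chloroplast inner membrane, Pag.A06G000780.v3.1 and Pag.B06G000680.v3.1, showed the same order. The former had 38.7 ± 0.551 FPKM on day 0 and 31.9 ± 0.290 on day 9, and the latter 44.0 ± 2.46 and 37.0 ± 1.44. Pag.B14G001333.v3.1, annotated with chloroplast mRNA processing and leaf development, had its lowest mean on day 0, 28.4 ± 2.50 FPKM, and its highest on day 6, 33.8 ± 1.06.

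Some stable genes carried terms for stress or hormone responses. Pag.B08G001148.v3.1, annotated with signalling by abscisic acid, the main hormone of drought, had day means of 41.1 ± 1.73, 50.1 ± 2.27, 48.5 ± 0.714 and 41.2 ± 0.230 FPKM, and the libraries of days 0 and 9 overlapped. Pag.A01G002901.v3.1, annotated with response to stress, had 40.4 ± 1.37 FPKM on day 0 and 37.7 ± 3.12 on day 9, with overlap. The autophagosome gene Pag.B13G001188.v3.1, named for the vesicle that delivers cell contents to the vacuole for recycling, lay between 26.2 and 32.2 FPKM. Pag.A02G002242.v3.1 and Pag.B02G000576.v3.1, whose sole term is regulation of circadian rhythm, had ratios of 1.27 and 1.24. Pag.B17G001376.v3.1, whose sole term is cell death mediated by singlet oxygen, a reactive product of photosynthesis, had 40.1 ± 1.78 FPKM on day 0 and 34.8 ± 0.708 on day 3, its extremes.

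Wall, sugar and phenolic metabolism gave a few further genes. The cellulose synthesis genes Pag.A01G004113.v3.1 and Pag.B01G003865.v3.1 had means of 52.0 and 50.9 FPKM and ratios of 1.298 and 1.255, and both were lowest on day 0. The carbohydrate transporter gene Pag.A15G001186.v3.1 had day means of 136 ± 3.62, 123 ± 3.40, 117 ± 2.48 and 139 ± 5.43 FPKM, lowest on day 6. The sugar-phosphate reductase gene Pag.A09G001208.v3.1 had its lowest mean on day 0 at 49.0 ± 2.10 FPKM and its highest on day 9 at 58.3 ± 1.11. The catechol oxidase genes Pag.A04G000407.v3.1 and Pag.B04G000376.v3.1, for enzymes that oxidise phenolic compounds, both had their lowest mean on day 9, 96.5 ± 0.958 and 59.1 ± 4.03 FPKM.

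Gene identifiers in the table begin with Pag.A for 96 of the 197 genes and Pag.B for 101. The table does not state what the letters stand for or which genes correspond, so correspondence was approached through GO texts held by exactly 1 Pag.A and 1 Pag.B gene whose identifiers carry the same number after that letter. Among such pairs, 19 contained at least 1 of the 197 genes. In 8 pairs both genes were stable, in 8 the other gene exceeded the ratio limit, and in 3 the other gene lay below 20 FPKM. Of the 44 such pairs without KO names in which both genes reached 20 FPKM in every library, 28 had neither gene within the ratio limit. The sources used here do not say how reads that match both copies of a pair were assigned, so the split of reads within a pair is uncertain.

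Where both genes were stable, their levels could still differ. Pag.A01G001547.v3.1 averaged 123 FPKM and its counterpart Pag.B01G001451.v3.1 79.4, with ratios of 1.09 and 1.16. Pag.A04G000172.v3.1 and Pag.B04G000172.v3.1, annotated with mRNA binding and response to ozone, had opposite orders of days 0 and 9 in the deposited values. The former had 64.3, 61.4 and 59.8 FPKM at day 0, 64.8, 68.7 and 65.0 at day 3, 71.4, 71.4 and 74.2 at day 6 and 74.0, 71.5 and 72.2 at day 9. The latter had 100.3, 102 and 99.4, then 102, 105 and 104, then 90.2, 86.9 and 89.7 and 88.4, 88.6 and 89.7 FPKM on those days. Every day 9 library of the former was above its day 0 libraries, and every day 9 library of the latter was below its own. With median-ratio factors over all genes above 0 the latter turned, from a mean of 91.2 FPKM on day 0 to 93.7 on day 9, while the former kept its direction at 56.1 and 76.6, so the opposition held under the deposited scale and the other 3 scalings but not under that one. On that scale Pag.B04G000172.v3.1 had the smallest ratio of the 197 genes, 1.103.

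The counterpart of the steadiest gene by deposited FPKM lay just outside the ratio limit. Pag.A09G001271.v3.1, which shares the GO text of Pag.B09G001337.v3.1, averaged 48.6 FPKM with a ratio of 1.43. The counterpart of the complex II gene Pag.A09G000015.v3.1 was Pag.B09G000005.v3.1, with a mean of 28.6 FPKM and a ratio of 1.42, just outside the limit. The counterpart of Pag.B14G001436.v3.1 was the most variable of the 8, Pag.A14G001531.v3.1 with a ratio of 1.88. Of the 3 counterparts below 20 FPKM, that of the kinase gene Pag.B06G001785.v3.1, Pag.A06G001901.v3.1, averaged only 2.76 FPKM against 62.7.

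Each drought day was also compared with day 0 gene by gene, with limma on log2(FPKM + 1) and Benjamini-Hochberg adjustment over 40736 genes. The comparison used the values that chose the genes, so nothing is read from its counts. At an adjusted p under 0.05, limma called 89 of the 197 genes on day 3 (45.2%), where 47.7% of all tested genes were called. On day 6 it called 119 (60.4%) beside 76.8% of all tested genes, and on day 9 it called 110 (55.8%) beside 76.9%. Called genes among the 197 were both higher and lower than on day 0: 49 higher with 40 lower for day 3, 56 with 63 for day 6, and 55 with 55 for day 9. With FPKM divided by median-ratio factors over all genes above 0, the split became 47 and 39, 142 and 4, and 125 and 8. With the same FPKM sum in each library it was 50 and 38, 91 and 33, and 72 and 44, and with median-ratio factors over the genes of at least 20 FPKM 41 and 46, 58 and 56, and 46 and 70. The direction of calls was not counted over all tested genes, so none of these splits is read as a trait of the 197. Of the 197 genes, 33 were called on no day, 51 on 1 day, 72 on 2 days and 41 on all 3. The number of days called was not counted over all tested genes, so it is not read as a trait of the 197.

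The limit on the ratio keeps every difference from day 0 small, so the values that follow describe the choice of genes. The median log2 difference of the 197 genes from day 0 was 0.0069 for day 3, 0.00097 for day 6 and -0.00061 for day 9, and its size without sign had medians of 0.12, 0.16 and 0.16. Over all tested genes the median was -0.01, -0.21 and -0.18, and the median size was 0.25, 0.64 and 0.64. The gene with the largest ratio of day means lay at 1.35 between its highest and lowest day. The log2 differences of single genes from day 0 ran from -0.423 to 0.416 over the 3 days.

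Textbook reference genes, found by KO name, were set beside the 197 genes. Of 222 such genes, 66 had a lowest value of at least 20 FPKM, and 15 of those (22.7%) were within both bounds, beside 20.4% of all genes at that level. Their median ratio was 1.60, and they ran from 1.12 to 14.6. The steadiest was the translation factor gene Pag.A06G001141.v3.1 (EIF5A), with 201, 190.0 and 196 FPKM at day 0, 196, 204 and 209 at day 3, 203, 202 and 209 at day 6 and 211, 205 and 213 at day 9. Its level was higher than that of all but 2 of the 197 genes, and its ratio of 1.12 was matched or bettered by only 3 of them. The scaffold subunit gene of protein phosphatase 2A, Pag.A08G001360.v3.1 (PPP2R1), kept a ratio of 1.15 at a mean of 24.5 FPKM.

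The counts varied by class, and the variation was not tested. Genes for eIF5A were within the bounds in 4 of 6 cases, those for the ubiquitin-conjugating enzyme UBE2D in 4 of 14, those for eIF4A in 3 of 8, those for elongation factor 1 alpha in 2 of 12 and those for GAPDH in 1 of 5. None of the 4 actin genes at this level of expression was within the bounds, with ratios of 1.54 to 1.76, nor were any of the 5 ubiquitin genes, the 4 histone H3 genes, the 3 alpha tubulin genes, the 2 catalytic subunit genes of protein phosphatase 2A, or the single beta tubulin and cyclophilin genes. The alpha tubulin gene Pag.B09G000845.v3.1 went from a mean of 414 FPKM on day 0 to 29.5 on day 6. Near-identical members of the actin, tubulin, ubiquitin and histone families may share reads, so their individual values are uncertain.

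**Figure D4:**
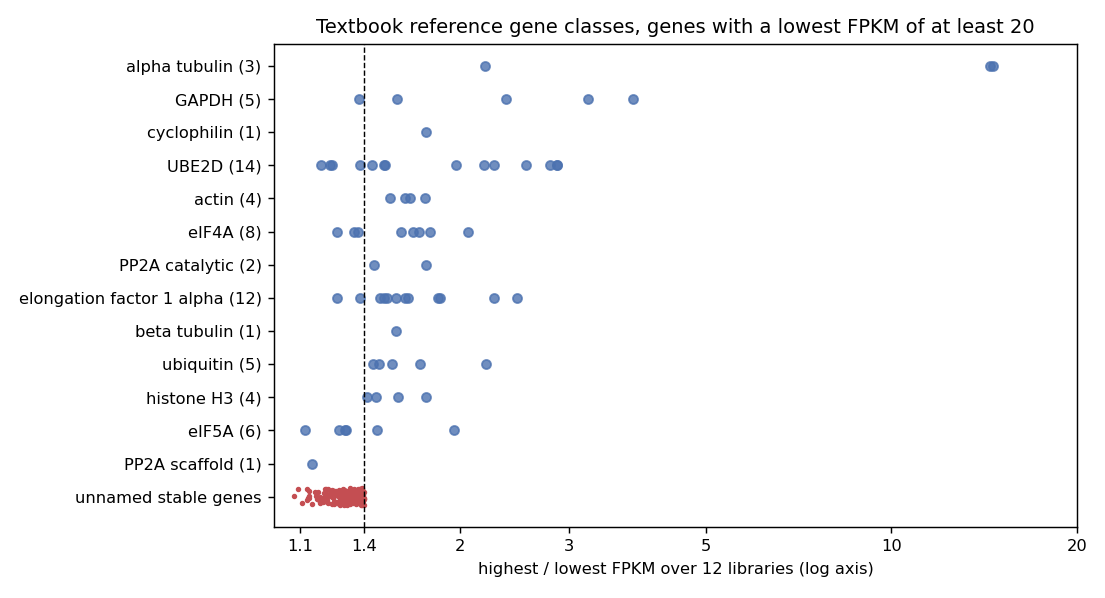
Ratio of highest to lowest FPKM over 12 libraries (horizontal log axis) for textbook reference genes with a lowest FPKM of at least 20, by class (rows, number of genes in brackets), above the 197 unnamed stable genes. The dashed line marks 1.4; actin genes lie at 1.54 to 1.76, and 2 alpha tubulin genes lie beyond 14.

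How stable a gene looks depends on what the libraries are scaled to, and the deposited FPKM is one such scale. The median ratio of each library to the average library, taken over the 41174 genes above 0 in all libraries, was 1.095 to 1.108 for the day 0 libraries, 1.096 to 1.104 for day 3, 0.903 to 0.914 for day 6 and 0.933 to 0.960 for day 9. Over the 3663 genes with a lowest value of at least 20 FPKM the same factor stayed between 0.984 and 1.04 in all libraries, and the geometric mean of the 197 genes, which the choice of genes holds near 1, stayed between 0.991 and 1.01. The gap followed expression level. Among the 41174 genes above 0 in all libraries, the median log2 ratio of day 6 to day 0 was -0.84 for means under 1 FPKM. It was -0.51 from 1 to 5 FPKM, -0.12 from 5 to 20 FPKM and 0.05 from 20 FPKM upward. Division by the first set of factors moved the median over all tested genes from -0.21 to 0.01 on day 6 and from -0.18 to 0.00 on day 9. It moved the median of the 197 genes to 0.27 and 0.21 on those days. The rule holds the deposited median of these genes near 0 and leaves out the lower tiers of expression, so nothing is read from its distance to the median of all tested genes.

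**Figure D5:**
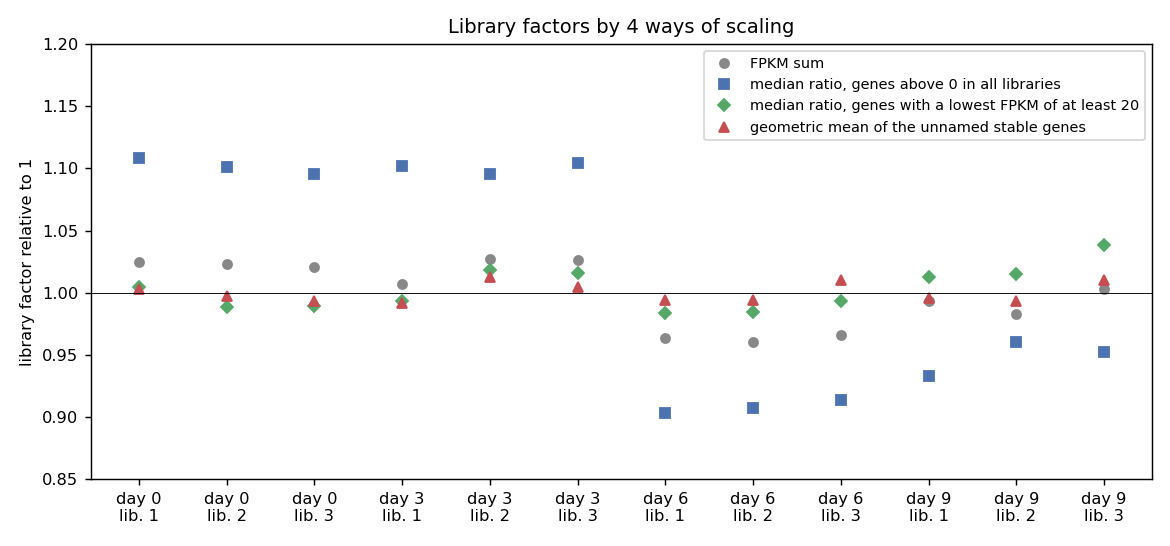
Library factors (vertical axis, relative to an average of 1) for each library (horizontal axis) from the FPKM sum, from median ratios over all genes above 0, from median ratios over genes of at least 20 FPKM, and from the geometric mean of the 197 genes. The second set lies at 1.095 to 1.108 for days 0 and 3 and at 0.903 to 0.960 for days 6 and 9, and the last stays within 0.991 to 1.01.

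The membership changed accordingly. When the rule was applied to values divided by the all-gene median-ratio factors, 170 genes met it, of which 80 were among the original 197; that is 40.6% of the 197 and 47.1% of the new set, and 114 of the 197 exceeded the ratio limit. With the same FPKM sum in each library 190 genes met it, including 161 of the 197 (81.7%, and 84.7% of the new set). With median-ratio factors over genes of at least 20 FPKM there were 184, including 173 of the 197 (87.8%, and 94.0% of the new set). With the geometric mean of the 197 genes themselves there were 204, including 193 (98.0%, and 94.6% of the new set). Those factors come from the genes they were applied to, so this last count was largely fixed in advance and tests nothing. A core of 72 genes met the rule under all 4 scalings and the deposited one, and 76 kept the ratio limit if the lower bound on FPKM was not applied again.

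All 10 steadiest genes kept the ratio limit under these scalings, and 8 of them also kept the lower bound. Under the all-gene factors Pag.A01G001547.v3.1 had a ratio of 1.24, Pag.B09G001337.v3.1 1.27, Pag.A09G000015.v3.1 1.303 and Pag.B02G001738.v3.1 1.37. Under the factors from genes of at least 20 FPKM the same genes had 1.09, 1.102, 1.11 and 1.13.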

How the data were processed

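RNA was measured in 12 leaf libraries of 84K poplar, 3 for each of days 0, 3, 6 and 9 of drought. The authors deposited a table of FPKM values for 85392 genes with GO and KO annotation; the aligner, the counting program and the genome build were not among the details that the sources used here provide. The deposited group means equalled the library means within 0.01 FPKM for 100% of values. No 2 libraries shared more than 0.300% of their values among 3663 genes, so no library was counted as a repeat. Low FPKM values did not give a relative depth: in 2 of 11 libraries the estimates from 2 value ranges agreed within 2%.

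Genes were chosen from FPKM as deposited, with a lowest value of at least 20 and a highest to lowest ratio of at most 1.4, by the libraries of all days. The genes and all word lists were chosen with earlier results of these data known. Day comparisons used log2(FPKM + 1) of the deposited values, for genes of at least 1 FPKM in at least 3 libraries, in 1 fit of all libraries with limma 3.58.1 (R 4.3.3) with trend and robust moderation, and calls had an adjusted p under 0.05 (Benjamini-Hochberg). The fit was also run on simulated data with far fewer changed genes than were called here, and no result rests on that run. Other steps used Python 3.11.15 with pandas 2.3.3 and numpy 2.4.6, and matplotlib 3.10.9 for plots.

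Named genes were the 10 with the smallest ratio, the 5 with the highest mean, the 5 with the lowest geNorm M, the 3 on either side of each bound, and the steadiest of each GO group. All other genes named, the pairs of Pag.A and Pag.B genes, the expression tiers, the scalings by genes of at least 20 FPKM and by the 197 genes, the count kept under all scalings, and the values of single genes under other scalings were chosen after values were seen. The textbook reference genes came from a list of KO names, of which TIPRL and PTB matched 0 genes.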

Additional observations from a re-analysis of the deposited data

How the results depend on the processing

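The number of genes depended on the bounds: it was 82 with a ratio limit of 1.3, 280 with 1.5, 434 with a floor of 10 FPKM and 79 with a floor of 40. Of the textbook reference genes, 8 were within a limit of 1.3 and 23 within 1.5, against 15. Leaving out single libraries gave 203 to 210 genes and 15 to 17 textbook genes. Under the rule this step can only keep or raise the counts, so it does not show how firm they are. The median log2 difference from day 0 was -0.0140 for day 3 and -0.0388 for day 9 with median-ratio factors over genes of at least 20 FPKM (chosen after seeing the data). With the same FPKM sum it was 0.0855 for day 6 and 0.0407 for day 9, and with median-ratio factors over all genes above 0 it was 0.273 and 0.211. Without single libraries it ran from -0.0060 to 0.0157 for day 3, -0.0023 to 0.0113 for day 6 and -0.0033 to 0.0168 for day 9, around the SD within a day of 0.0110. Counts of limma calls stayed within 1.5 times the reported ones under every alternative run: without single libraries they were 74 to 82, 100 to 111 and 100 to 108 on days 3, 6 and 9. With a replicate block they were 82, 115 and 108. The correlation of deviations from the day means was -0.0268 to 0.0381 for the 18 pairs of libraries with the same replicate number. It was -0.0321 to 0.0380 for the 36 other pairs. No shared effect of the replicate number is visible in these values. They cannot tell whether libraries with the same number came from the same plant or preparation. The ratio of the named genes moved by less than the spread within a day in 331 recalculations and by more in 44. These counts pool other scalings with runs that left out single libraries. In the latter the ratio cannot change unless the highest or lowest library is left out, so the counts do not measure dependence on scaling. With median-ratio factors over all genes above 0, the ratio of Pag.A01G001547.v3.1 moved from 1.09 to 1.24. The depth is unknown, so counting error at about 20 FPKM could not be separated from other spread, and the rule favours genes that happened to vary little in these 12 libraries.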
